A study of Mus musculus with 4 samples.

Results

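The mRNAs followed here belong to 10 genes of the piRNA pathway and the chromatoid body: Piwil1, Piwil2, Tdrd1, Tdrd5, Tdrd6, Tdrd7, Tdrd9, Mael, Ddx4 and Mov10l1. They were examined in an eCLIP-seq experiment on the RNA-binding protein IGF2BP3 in mouse testis. A cluster of reads was assigned to one of these 10 genes when its centre lay inside the span of the gene, on the strand of the gene, in GENCODE release M21 on mm10. The 10 genes are among 17,116 genes with a cluster in replicate 1 and 15,203 in replicate 2. They held 692 of 337,234 clusters in replicate 1 and 549 of 216,354 in replicate 2. Testes of 8-week-old wild type C57BL/6 mice, a mixture of germ cells and somatic cells, were crosslinked with UV light of 254 nm at 400 mJ/cm2. Each of the 2 replicates paired an IP library, pulled down with an IGF2BP3 antibody, with a size-matched input library (SMInput) prepared without antibody, which makes 4 libraries. The study calls the pairs biological replicates. Replicate 1 rested on 5,133,438 usable IP reads and 8,706,391 usable SMInput reads. Replicate 2 rested on 4,637,612 usable IP reads and 16,696,122 usable SMInput reads, and all these totals were recovered from the fold changes and P values of the tables.

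The piRNA pathway protects the germline genome: PIWI proteins carry small RNAs that guide the cleavage or silencing of transposon transcripts and, in meiotic and later cells, of other RNAs. Long precursors are unwound, processed and loaded with the help of RNA helicases and of Tudor domain proteins, which bind methylated arginines of PIWI proteins. The same proteins gather in the cement between the mitochondria of spermatocytes and in the chromatoid body, the large RNA-rich granule of round spermatids. The question put to the data was where along these mRNAs the IGF2BP3 IP was enriched over its SMInput.

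A cluster was a significant peak when its log2(fold change), IP over SMInput with each scaled to its library, reached 2 and its −log10(P value) also reached 2, both as the authors listed them. Significant peaks of the 10 genes numbered 46 of 692 clusters (6.65%, 95% Wilson interval 5.02 to 8.75%) in replicate 1, where 4.92% of all clusters passed. In replicate 2 they numbered 73 of 549 (13.3%, interval 10.7 to 16.4%), where 13.2% of all clusters passed. As a whole, the 10 genes lay slightly above the background of the experiment in replicate 1 and at it in replicate 2. Without Piwil2 and Tdrd1 the share was 28 of 545 (5.14%) in replicate 1, near that background, and 40 of 414 (9.66%) in replicate 2, below it. Where the peaks lay set the genes apart from one another. In the 3′UTR, 23 of 52 clusters were significant in replicate 1 (44.2%, interval 31.6 to 57.7%), beside 19.4% of all 3′UTR clusters. In replicate 2, 29 of 51 were significant (56.9%, interval 43.3 to 69.5%), beside 34.5% of all 3′UTR clusters. These intervals cover counting error only. They treat clusters of 1 mRNA as independent and are no test against the background. In the coding sequence (CDS), 9 of 274 clusters were significant in replicate 1, beside 5.28% of all CDS clusters. In replicate 2, 18 of 258 CDS clusters were significant, beside 7.96%. The CDS shares were 3.28% (interval 1.74 to 6.12%) and 6.98% (interval 4.46 to 10.8%), and both intervals hold the share of all genes. In introns, 14 of 353 clusters (3.97%, interval 2.38 to 6.55%) were significant in replicate 1, beside 1.94% of all intron clusters. Of these 14 peaks, 5 lay in Ddx4. In replicate 2, 26 of 233 intron clusters were significant (11.2%, interval 7.73 to 15.8%), beside 10.8%. Of the 5′UTR clusters, 0 of 11 were significant in replicate 1, beside 5.09% of all 5′UTR clusters, and 0 of 7 in replicate 2, beside 8.63%, too few clusters to tell the genes from the background. Seen from the peaks, 23 of 46 lay in 3′UTRs in replicate 1 (50%, interval 36.1 to 63.9%), beside 43.2% of all significant peaks. In replicate 2, 29 of 73 did (39.7%, interval 29.3 to 51.2%), beside 36.6%. Without Piwil2 and Tdrd1, 8 of 28 peaks lay in 3′UTRs in replicate 1 and 6 of 40 in replicate 2. For the other 8 genes, the share of peaks in 3′UTRs was thus below that of all significant peaks in both replicates.

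Most of the significant 3′UTR peaks came from a pair of genes. Piwil2 and Tdrd1 together had 15 of 21 3′UTR clusters significant in replicate 1 (71.4%) and 23 of 26 in replicate 2 (88.5%). The other 8 genes had 8 of 31 (25.8%) and 6 of 25 (24.0%), above the share of all genes in replicate 1 and below it in replicate 2. Even so, the higher fold change in the 3′UTR was not limited to that pair. The median log2(fold change) of the 3′UTR clusters exceeded that of the CDS clusters in 9 of the 10 genes in replicate 1, beside 73.2% of all genes with clusters in both regions. In replicate 2 it did so in 10 of 10, beside 79.4%. The exception was Tdrd6, whose medians in the 3′UTR and the CDS were both 0.64 in replicate 1. In replicate 2 its medians differed by 0.04. For Tdrd7 in both replicates and Mael in replicate 2, the 3′UTR value rests on 1 cluster. The median difference over the 10 genes was 1.32 in replicate 1, against 0.63 over all genes, and 1.0 in replicate 2, against 0.72.

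**Figure D1:**
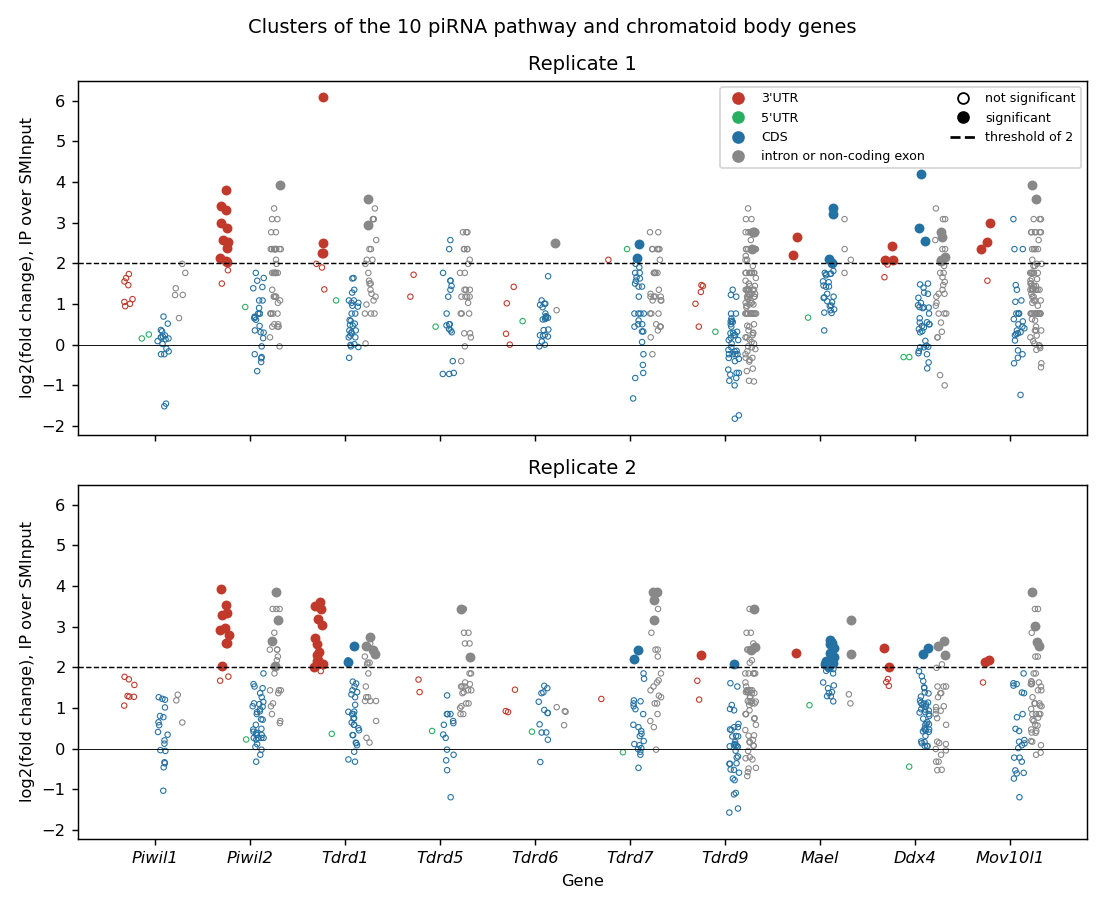
Each point is 1 cluster of the gene named below it, with its log2(fold change), IP over SMInput, on the vertical axis, in replicate 1 (top) and replicate 2 (bottom); colours give the gene region, filled points are significant peaks and the dashed line is the threshold of 2. The filled 3′UTR points gather in Piwil2 and Tdrd1, Mael has its filled points mainly in the CDS, and Piwil1 has none in either replicate.

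At the level of genes, 8 of the 10 had a significant peak in replicate 1, beside 35.5% of all genes with a cluster, and 8 of the 10 in replicate 2, beside 57.0%. Piwil2, Tdrd1, Tdrd7, Tdrd9, Mael, Ddx4 and Mov10l1, 7 in all, had one in both replicates, beside 35.2% of the 14,251 genes with clusters in both. Tdrd5 had one in replicate 2 alone and Tdrd6 in replicate 1 alone. Piwil1 had none in either, a state shared by 33.6% of genes. These counts are not matched for the number of clusters. The 10 genes had 29 to 148 clusters each in replicate 1 and 21 to 100 in replicate 2, where the median gene had 9 and 7.

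The replicates met at the same bases in fewer genes. Of the 46 significant peaks of replicate 1, 23 (50%, interval 36.1 to 63.9%) overlapped a significant peak of replicate 2 on the same strand by at least 1 base, beside 33.0% of all significant peaks. Of the 73 of replicate 2, 24 (32.9%, interval 23.2 to 44.3%) overlapped one of replicate 1, beside 18.5%. In the 3′UTR, 20 of 23 peaks of replicate 1 were met (all genes 45.7%), and 21 of 29 of replicate 2 (all genes 30.3%). In the CDS, 3 of 9 peaks of replicate 1 were met (all genes 35.9%), and 3 of 18 of replicate 2 (all genes 27.5%). In introns, 0 of 14 peaks of replicate 1 were met (all genes 4.48%), and 0 of 26 of replicate 2 (all genes 1.57%). Significant peaks of the 10 genes held a median of 26 IP reads in replicate 1 and 21 in replicate 2. The medians were 13 and 8 over all significant peaks with recovered reads, and the shares met were not matched for reads. Joined, the peaks that met made 14 shared sites, 12 in 3′UTRs and 2 in CDS, with widths of 60 to 235 bases and a median of 140.5. They were held by 5 genes: Piwil2 and Tdrd1 had 4 each, Mael 3, Ddx4 2 and Mov10l1 1. Of all genes, 15.1% had a shared site. Only 1.59% of genes had at least 4, and 3.10% had at least 3. These shares of genes are not matched for the number of clusters either.

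Piwil2 encodes MILI, the PIWI protein that acts from fetal germ cells through to round spermatids. It had 12 significant peaks among 85 clusters in replicate 1 and 14 among 71 in replicate 2. At least 12 in both were found in 113 of the 14,251 genes (0.793%), a rank not matched for the number of clusters. Most peaks of Piwil2 lay in the 3′UTR, on the minus strand of chromosome 14 in exon 23. There, 11 of 14 clusters were significant in replicate 1 and 10 of 12 in replicate 2. The 3′UTR peaks covered 610 bases in replicate 1 and 629 in replicate 2, 33.8% and 34.9% of its 1803 bases. The CDS of the same mRNA stood in contrast, with 0 of 26 and 0 of 35 clusters significant and median log2(fold change) values of 0.66 and 0.58. The 3′UTR medians were 2.45 and 2.85.

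The 4 shared sites of Piwil2 were spread from the stop codon to the end of the transcript. The first, at chr14:70374018-70374120, was centred 211 bases after the stop codon and had a log2(fold change) of 2.57 to 2.86 in replicate 1 and 2.80 to 3.53 in replicate 2. The next, at chr14:70373768-70373921, was centred 436 bases after the stop codon, with values of 2.52 to 3.80 in replicate 1 and 2.59 to 3.94 in replicate 2. It held the peak with the highest −log10(P value) of Piwil2 in replicate 1, 12.1, from 41 IP and 5 SMInput reads. Together they mark the first part of the 3′UTR as enriched in both replicates. Farther on, the site at chr14:70373056-70373234, centred 1135 bases after the stop codon, had values of 2.03 to 3.41 in replicate 1 and 2.97 to 3.28 in replicate 2. Its wider peak rested on 70 IP and 29 SMInput reads in replicate 1 and on 74 and 34 in replicate 2, where its −log10(P value) of 30.7 was the highest of Piwil2. The last site, at chr14:70372502-70372665, was centred 106 bases before the end of the transcript, with values of 2.05 to 2.98 in replicate 1 and 2.90 to 3.34 in replicate 2. Between the sites at chr14:70373768-70373921 and chr14:70373056-70373234, no significant peak of Piwil2 was called in either replicate.

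Piwil1 encodes MIWI, the PIWI protein of pachytene spermatocytes and round spermatids, and it contrasted with Piwil2. None of its 34 clusters in replicate 1 and none of its 28 in replicate 2 was significant. Its clusters were well covered by reads. A 3′UTR cluster at chr5:128754569-128754682 held 216 IP and 169 SMInput reads in replicate 1, with a log2(fold change) of 1.12. In replicate 2, the cluster at chr5:128754398-128754484 held 194 IP and 236 SMInput reads, with a log2(fold change) of 1.57 and a −log10(P value) of 30.9. Piwil1 clusters could thus pass the threshold on the P value and stay under that on the fold change. All 8 of its 3′UTR clusters in replicate 1 lay between 0.94 and 1.73, and all 7 in replicate 2 between 1.06 and 1.76. Its CDS medians were 0.14 and 0.37. Among clusters with recovered reads, the median SMInput count of Piwil1 was 27 in replicate 1, against 4 for Piwil2, and 45.5 against 12.5 in replicate 2. These medians leave out clusters without recovered reads, which had a log2(fold change) near or below 0. In whole testis, fewer cells of a type and less RNA per cell cannot be told apart, and the part of RNA abundance in the difference between these genes was not tested.

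Tdrd1, a Tudor scaffold protein that binds MILI, also had several separate peaks in its 3′UTR. It had 6 significant peaks among 62 clusters in replicate 1 and 19 among 64 in replicate 2. In the 3′UTR, 4 of 7 clusters were significant in replicate 1 and 13 of 14 in replicate 2, and these covered 33.1% and 45.3% of its 1310 bases. In the CDS, 0 of 29 clusters and 2 of 30 were significant, and the 2 peaks held 8 and 11 IP reads. All 4 shared sites lay in exon 25 on the plus strand of chromosome 19. The highest fold change stood at one of them: at chr19:56869582-56869667, centred 922 bases after the stop codon, the peak of replicate 1 had a log2(fold change) of 6.08. It rested on 40 IP reads and 1 SMInput read, so its fold change hangs on a single background read. The peaks of replicate 2 at this site had values of 3.50 and 3.60, the latter from 27 IP and 8 SMInput reads.

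A broader site of Tdrd1 carried its lowest P values. It ran over 235 bases at chr19:56869301-56869535, centred 716 bases after the stop codon. One peak of 227 bases with 127 IP and 45 SMInput reads lay there in replicate 1, with a log2(fold change) of 2.26 and a −log10(P value) of 22.4. In replicate 2 it was called as 4 adjoining peaks of 2.38 to 3.19, the strongest by P value with 84 IP and 46 SMInput reads and a −log10(P value) of 31.1. The same stretch of RNA was thus enriched in both replicates, though divided into clusters differently. The remaining sites of Tdrd1 had lower values than these in replicate 2. At chr19:56869158-56869279 the values were 2.50 in replicate 1 and 2.00 in replicate 2, and at chr19:56869719-56869778 they were 2.25 and 2.15.

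**Figure D2:**
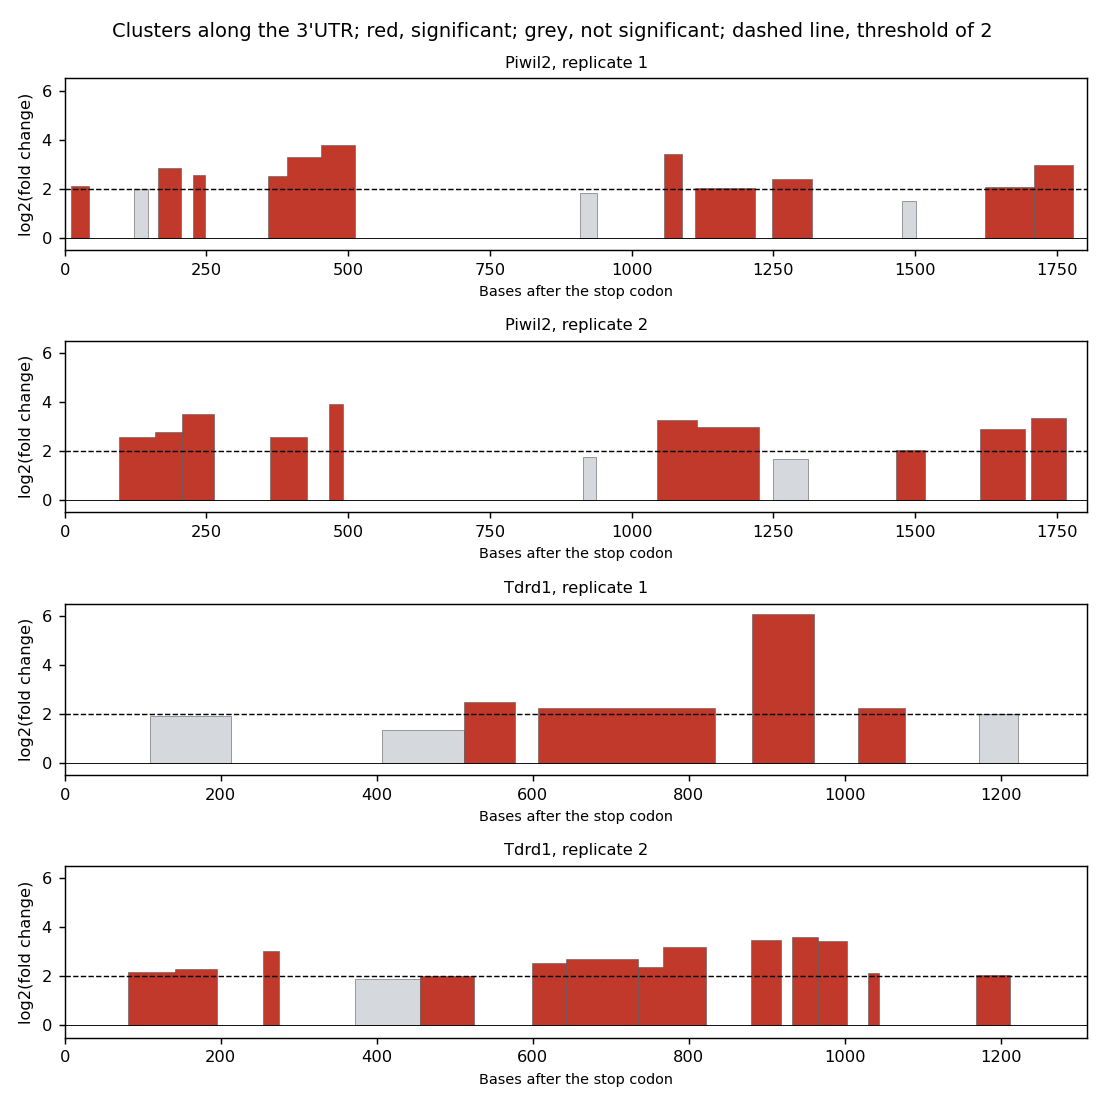
Clusters along the 3′UTR of Piwil2 (1803 bases) and Tdrd1 (1310 bases) in each replicate, with the distance from the stop codon in bases on the horizontal axis and the log2(fold change) as the height of each bar; red bars are significant peaks, grey bars other clusters and the dashed line the threshold of 2. In Piwil2 the red bars of both replicates stand on both sides of a gap in which neither replicate has one, and in Tdrd1 the tallest bar, 6.08 in replicate 1, stands where replicate 2 has bars of 3.50 and 3.60.

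The other Tudor genes had few peaks, and none of them had a shared site. Tdrd9, which joins a helicase to a Tudor domain and acts in transposon silencing, had 3 significant peaks among 148 clusters in replicate 1 and 5 among 100 in replicate 2. Its peak with the highest −log10(P value) in replicate 1, 3.68, lay in intron 9 at chr12:112009028-112009100 with 16 IP and 4 SMInput reads and a log2(fold change) of 2.76. The overlapping cluster of replicate 2 had a value of −0.21. In replicate 2 the counterpart, 6.72, lay in the 3′UTR at chr12:112068434-112068535, with 22 IP and 16 SMInput reads and a log2(fold change) of 2.31. The overlapping cluster of replicate 1 reached 1.29 there. The 3′UTR place of Tdrd9 was thus above 0 in both replicates and significant in 1, and the intron place was above 0 in replicate 1 alone. Its CDS medians, −0.02 and 0.07, were near 0.

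Tdrd7, needed for the normal architecture of the chromatoid body, had 2 significant peaks among 62 clusters in replicate 1, both in CDS, in exons 16 and 17. The one with the higher −log10(P value), at chr4:46034296-46034420, had 33 IP and 10 SMInput reads and a log2(fold change) of 2.48. No cluster of replicate 2 overlapped it. The other, at chr4:46029746-46029810, had a value of 2.12, and the overlapping cluster of replicate 2 had −0.15. In replicate 2, 6 of 47 clusters of Tdrd7 were significant, 2 of them in CDS, in exons 7 and 8, and 4 in introns. The strongest of these by P value, at chr4:46005609-46005697, had 18 IP and 14 SMInput reads and a log2(fold change) of 2.21, and the overlapping cluster of replicate 1 reached 1.43. Peaks of Tdrd7 were thus present in both replicates at different places.

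Tdrd6, a large Tudor protein of the chromatoid body, had 1 significant peak among 29 clusters in replicate 1, an intron peak at chr17:43619966-43619977 with 10 IP and 3 SMInput reads. It had 0 among 21 clusters in replicate 2. Tdrd5, which acts in piRNA production and in spermatid development, had 0 among 49 clusters in replicate 1 and 2 among 42 in replicate 2. Both of the latter lay in introns, the stronger by P value at chr1:156273114-156273197 with 6 IP and 2 SMInput reads. The 3′UTR clusters of Tdrd5 had values of 1.18 and 1.72 in replicate 1 and of 1.39 and 1.70 in replicate 2. Neither gene had a peak that was significant in both replicates.

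Mael encodes Maelstrom, which is needed for transposon silencing and for pachytene piRNAs, and its pattern differed from those of Piwil2 and Tdrd1. All of its clusters had a log2(fold change) above 0, 35 of 35 in replicate 1 and 30 of 30 in replicate 2, beside 91.8% and 93.4% of all clusters. The median over the gene was 1.53 in replicate 1 and 1.96 in replicate 2, against 1.08 and 1.11 over the clusters of all 10 genes and 1.5 and 1.53 over all clusters of the experiment. Of these clusters, 6 were significant in replicate 1 and 14 in replicate 2. Most lay in the CDS, 4 of 28 clusters and 11 of 24. Values above 0 thus ran along the whole Mael mRNA, at a median like that of the experiment in replicate 1 and above it in replicate 2.

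The 3 shared sites of Mael lay on the minus strand of chromosome 1. One spanned the stop codon in exon 12, at chr1:166201418-166201583. Its peaks in replicate 1 had values of 2.21 and 2.65, the former with 120 IP and 44 SMInput reads and a −log10(P value) of 20.6. Its peak in replicate 2 had 128 IP and 91 SMInput reads, a value of 2.34 and a −log10(P value) of 38.4, the highest of any significant peak of the 10 genes. The Mael 3′UTR is short, and the peaks covered 79.8% of its 163 bases in replicate 1 and 60.7% in replicate 2. Both CDS sites that any of the 10 genes had in common between the replicates were also in Mael. The site in exon 6, at chr1:166226566-166226692, had values of 2.01 to 3.22 in replicate 1 and of 2.57 to 2.66 in replicate 2. The site in exon 11, at chr1:166202290-166202352, had 2.11 in replicate 1 and 2.15 in replicate 2. The highest fold change of Mael in replicate 1 was not shared: the peak in exon 7 at chr1:166225864-166225892 had 3.35 from 24 IP and 4 SMInput reads, and the cluster of replicate 2 over it had 1.29.

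Ddx4, the germ cell RNA helicase also called mouse Vasa homologue, had 11 significant peaks among 75 clusters in replicate 1 and 7 among 76 in replicate 2. Both of its shared sites lay in the 3′UTR in exon 21, on the minus strand of chromosome 13. The site at chr13:112598546-112598730 had values of 2.08 in replicate 1, with 85 IP and 34 SMInput reads, and 2.48 in replicate 2, with 45 and 29. The site at chr13:112598375-112598474, centred 91 bases before the end of the transcript, had 2.42 and 2.01. Peaks covered 54.7% of the 612 bases of the 3′UTR in replicate 1 and 32.5% in replicate 2.

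A stretch of the Ddx4 CDS was enriched much more in one replicate than in the other. In exon 12, at chr13:112622170-112622259, replicate 1 had 3 adjoining significant peaks with values of 2.53, 4.20 and 2.88. The middle one had 65 IP and 6 SMInput reads and a −log10(P value) of 20.2, the highest of Ddx4. In replicate 2, the cluster over it had 36 IP and 41 SMInput reads and a value of 1.66. The stretch was above 0 in both replicates but significant in 1, and whether the difference exceeds the variation between replicates was not tested.

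**Figure D3:**
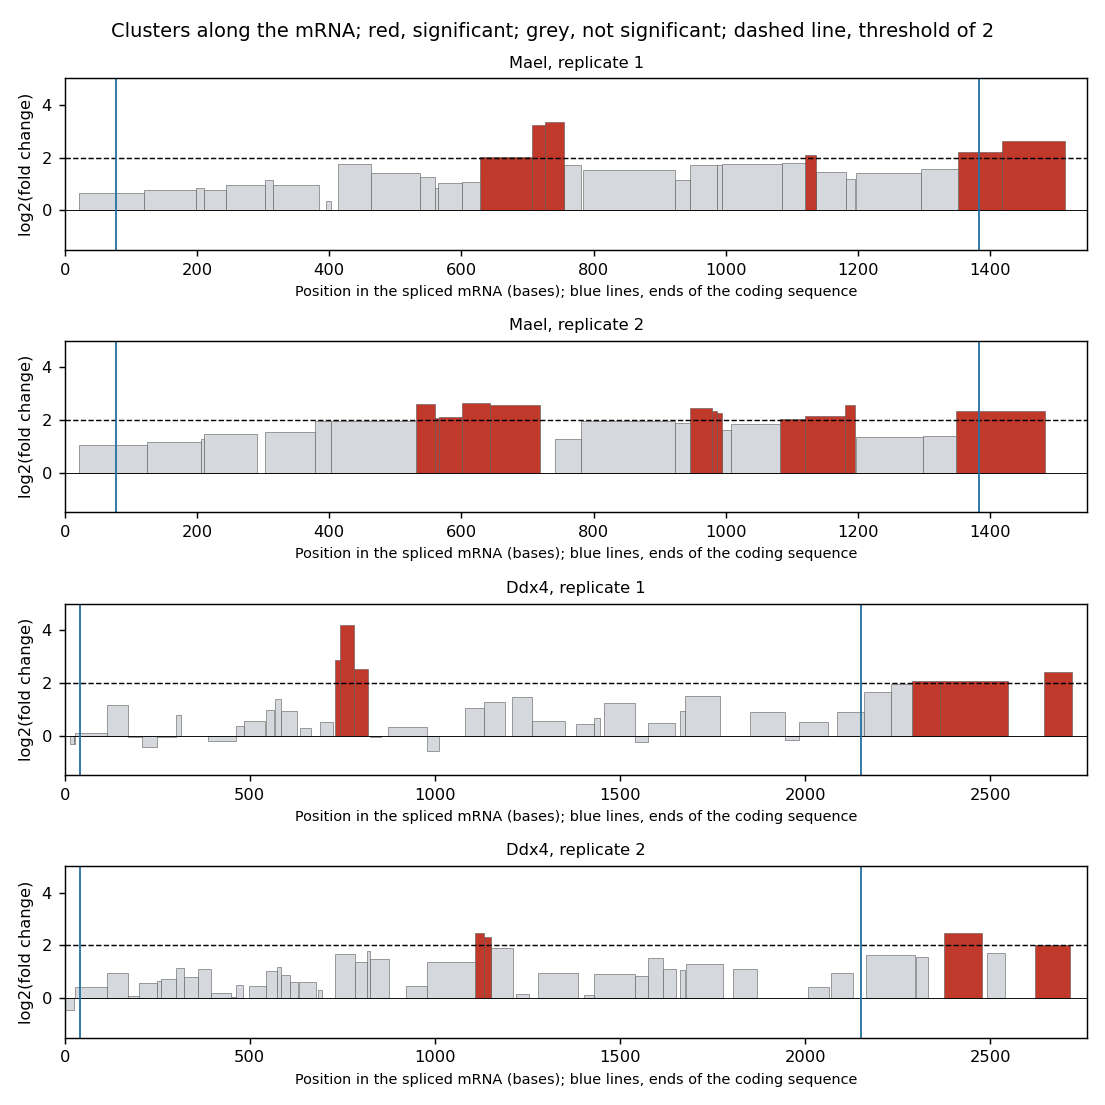
Clusters along the spliced mRNA of Mael and Ddx4 in each replicate, with the position in bases on the horizontal axis and the log2(fold change) as the height of each bar; red bars are significant peaks, grey bars other clusters, blue lines the ends of the CDS and the dashed line the threshold of 2. All bars of Mael stand above 0, and the tallest bar of Ddx4, 4.20, is in the CDS of replicate 1, where replicate 2 has a bar of 1.66.

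Mov10l1, the helicase that binds piRNA precursors and is needed for their processing, had 5 significant peaks among 113 clusters in replicate 1 and 6 among 70 in replicate 2. Its shared site lay in the 3′UTR in exon 27, at chr15:89054937-89055129 on the plus strand. The 3 peaks of replicate 1 there had values of 2.35 to 2.98 and rested on 14 to 18 IP reads each. The 2 peaks of replicate 2 had values of 2.13 and 2.18 and rested on 29 to 34 IP reads. In the CDS, 0 of 27 and 0 of 23 clusters were significant. The site was thus enriched in both replicates on few reads, with its highest −log10(P value) at 3.75 in replicate 1 and 9.15 in replicate 2.

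The peaks also differed in the reads behind them. The 3′UTR peaks of the 10 genes held 14 to 127 IP reads in replicate 1, with a median of 40, and 16 to 128 in replicate 2, with a median of 33. Their intron peaks held 7 to 20 IP reads in replicate 1, with a median of 9.5, and 4 to 13 in replicate 2, with a median of 7. Of these intron peaks, 3 of 14 in replicate 1 and 3 of 26 in replicate 2 overlapped any cluster of the other replicate, beside 14.6% and 10.4% of all significant intron peaks. The clusters of replicate 2 over those 3 intron peaks of replicate 1 had values of −0.21 to 1.02, and the reverse comparison gave 0.76 to 2.08. Where a cluster of replicate 2 lay over a 3′UTR peak that was significant in replicate 1 alone, its value was 1.54 to 1.67, and the reverse comparison gave 1.29 to 1.98. All of these 3′UTR clusters were above 0, as were 96.3% and 98.4% of all 3′UTR clusters, and below the fold threshold. In replicate 1, that of Tdrd9 at chr12:112068457-112068544 and that of Piwil2 at chr14:70372779-70372803 also missed the P value threshold, with −log10(P value) values of 1.26 and 1.74. Only 1 such peak of replicate 1 and 2 of replicate 2 had no cluster of the other replicate over them. On the opposite strand, 0 clusters had their centre within the span of any of the 10 genes in either replicate. Small genes nested in the spans on the same strand lay under 2 of the clusters in replicate 1 and 1 in replicate 2, of which 0 were significant.

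Sequences of 6 shared sites are printed because these sites had the highest log2(fold change) in both replicates, ranked by the smaller of their values. They are on the RNA strand from 5′ to 3′, with T for U, in mm10. For the sites in 3′UTRs the 30 bases around the centre are given, and capitals mark bases under significant peaks of both replicates. For the Mael site in the CDS the whole site is given, and capitals mark the motif AAACC.
Piwil2 chr14:70373830-70373859, minus strand: TTCTCCtcagccgagcgtggagcttcggac
Tdrd1 chr19:56869610-56869639, plus strand: AGACTTATGCTctagaaataattcaCTGTC
Piwil2 chr14:70373131-70373160, minus strand: AAGCACTGGTTTTCTGTGTTATTTTTTTCC
Piwil2 chr14:70372569-70372598, minus strand: GATACTTGACCATaatgccagaaTGTACTT
Piwil2 chr14:70374055-70374084, minus strand: TGGGAGACTGaagcaggagtatctttagtt
Mael chr1:166226566-166226692, minus strand: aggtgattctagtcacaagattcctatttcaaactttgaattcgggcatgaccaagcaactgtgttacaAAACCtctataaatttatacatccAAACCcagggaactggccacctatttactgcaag
The sites differ widely in base composition. The Piwil2 site around chr14:70373830-70373859 had 55.2% G and C over its whole length, against 33.7% for the Tdrd1 site and 39.4% for the Mael site.

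The motif GGACT, the motif GAACA, the motif AAACC and the motif ACACA, 4 in all, were counted on the RNA strand in windows of 100 bases around the peak centres, as a description. GGACT was in 7 of 46 windows of the 10 genes in replicate 1 (15.2%), beside 9.91% of all significant peaks, and in 5 of 73 in replicate 2 (6.85%), beside 9.08%. AAACC was in 15.2% of windows in replicate 1, beside 8.66%, and in 2.74% in replicate 2, beside 8.13%. GAACA was in 10.9% of windows in replicate 1, beside 8.86%, and in 5.48% in replicate 2, beside 8.38%. For these 3 motifs, the 10 genes lay above all significant peaks in replicate 1 and below them in replicate 2. ACACA lay below in both, at 4.35% beside 11.2% and 8.22% beside 10.7%. Over the 14 shared sites, GGACT was in 1, GAACA in 2, AAACC in 2 and ACACA in 1, and 6 held any of the 4.

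The P values behind these counts are the authors' tests of single clusters, and clusters of 1 mRNA are not replicates. Raising both thresholds to 3 left 9 significant peaks in replicate 1 and 11 in replicate 2, with 3 shared sites, and 3 genes, Piwil2, Tdrd1 and Mov10l1, then had a peak in both replicates. Lowering the fold threshold to a log2 value of 1 instead gave all 10 genes a significant peak in each replicate, and Piwil1 had 10 in replicate 1 and 11 in replicate 2, where Piwil2 had 15 and 19. Assigning each peak to the closest transcription start site left Piwil2 and Tdrd9 with 0 in both replicates.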

How the data were processed

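IGF2BP3 eCLIP-seq of testis was read from 2 deposited tables, each comparing the IP with the SMInput of its replicate. The authors' values for each cluster are the −log10(P value), 400 at most, and the log2(fold change) of IP over SMInput reads, each scaled to its library. A −log10(P value) of 0 was listed where the IP was not enriched and for some clusters with a log2(fold change) slightly above 0. The authors aligned reads to mm10, collapsed PCR duplicates and called clusters with Clipper. Read numbers and library totals are the whole numbers that return both listed values. Clusters listed at a −log10(P value) of 0, 35,791 in replicate 1 and 16,261 in replicate 2, have no recovered reads. A single solution was found for 98.9% and 99.2% of clusters, shares that do not cover those listed at 0. Regions came from basic GENCODE M21 transcripts, 3′UTR before CDS, at the cluster centre. Named were all 10 genes, their peaks with the highest −log10(P value) in each replicate, every shared site, and of the wider lists the 5 genes with the most peaks in both replicates and those with none. Other features were chosen after their values were seen. The genes and lists were chosen with earlier results of these data known. Alternatives covered thresholds, adjustment of P values, read minimum, gene assignment, region order, overlap, joining and each replicate alone. Python 3.11.15, pandas 2.3.3, numpy 2.4.6, scipy 1.17.1, statsmodels 0.14.6 and matplotlib 3.10.9 were used.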

Additional observations from a re-analysis of the deposited data

How the results depend on the processing

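Requiring both listed values to be at least 3 left 9 significant peaks in replicate 1 and 11 in replicate 2, 81.8% of the latter in 3′UTRs, 3 genes with a peak in both replicates and 3 shared sites. Tdrd6, Tdrd7 and Tdrd9 then had 0 in replicate 1, and Tdrd5, Tdrd9, Mael and Ddx4 had 0 in replicate 2. A log2(fold change) of at least 1 gave 94 and 142 peaks and 36 shared sites. Counting only exons gave 47 peaks in replicate 2 and 3′UTR shares of 71.9% and 61.7%. It took Tdrd6 and Tdrd9 to 0, Ddx4 from 11 to 6 and Mov10l1 from 5 to 3 in replicate 1, and Tdrd5 to 0, Tdrd7 and Mov10l1 from 6 to 2, Tdrd9 from 5 to 2 and Ddx4 from 7 to 4 in replicate 2, which leaves Tdrd9 without a peak in both. Assigning peaks to the nearest transcription start site gave 15 and 26 peaks, 3′UTR shares of 13.3% and 7.69% and 3 shared sites, and took Piwil2 from 12 and 14 and Tdrd9 from 3 and 5 peaks to 0, with lower counts for Tdrd1, Tdrd7, Ddx4 and Mov10l1 in both replicates, since that rule gives peaks far from the start of a long gene to its neighbours. At least 10 IP reads gave a 3′UTR share of 59.2% in replicate 2, and took Tdrd5 from 2 to 0, Tdrd7 from 6 to 1, Tdrd9 from 5 to 3 and Mov10l1 from 6 to 3 there and Mov10l1 from 5 to 3 in replicate 1. With replicate 1 left out 8 genes had a significant peak in the remaining replicate, and with replicate 2 left out also 8, where 7 had one in both. Adjusting the P values by the Benjamini-Hochberg method over all clusters left the counts over all 10 genes within 1.5 times, but took Tdrd6 from 1 to 0 and Tdrd9 from 3 to 1 peaks in replicate 1 and Tdrd7 from 6 to 3 in replicate 2, and a stricter overlap and the joining of peaks within 50 bases gave 13 and 12 shared sites. Taking CDS before 3′UTR left the 3′UTR shares at 50% and 39.7%. A test between samples was not run: read numbers are known only within the clusters of each replicate, and 0 of the 692 and 549 clusters of the 10 genes had the same bounds in both. Depth sets which clusters can pass: over all clusters, a peak with 1 SMInput read passed from 7 IP reads in replicate 1 and from 4 in replicate 2.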

Other observations

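Over all genes, 35.5% had a significant peak in replicate 1, 57.0% in replicate 2 and 35.2% in both, and 15.1% had a shared site. Of 20 further piRNA pathway genes, 11 had a significant peak in replicate 1, 14 in replicate 2 and 10 in both. A shared site was in 4 of them, near the share of all genes. Mybl1, the transcription factor that drives pachytene piRNA precursors, had 10 significant peaks in each replicate, all in the 3′UTR, with 5 shared sites and a highest log2(fold change) of 5.81 in replicate 1 and 3.85 in replicate 2. Tex15, which acts in transposon silencing, had 7 and 8, most of them in the CDS (6 and 5). Piwil4, Pnldc1, Tex19.1, Btbd18 and Adad2 had none in either replicate, and Piwil4 had only 2 clusters in replicate 1 and 0 in replicate 2. Of 14 further chromatoid body genes, 11 had a significant peak in replicate 1, 13 in replicate 2 and 11 in both, and 6 had a shared site. Ddx6, an RNA helicase of cytoplasmic granules, had 7 and 8 significant peaks. Ago2, the Argonaute protein of microRNAs, had 6 and 16, and Fyco1, an adaptor of vesicle transport, had 6 and 9. Tsks, a spermatid protein, had none among 24 clusters in each replicate.

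The tissue label was checked against cell type markers. All 6 spermatid markers, 5 spermatocyte markers, 5 spermatogonial markers, 5 Sertoli cell markers and 5 Leydig cell markers had clusters in both replicates. Clusters alone cannot establish that a cell type was present, since a marker of other tissues had them too. Of 5 markers of liver, heart, muscle or pancreas, only Ttn had clusters, 33 in replicate 1 and 21 in replicate 2. Of these, 0 were significant in replicate 1 and 1 in replicate 2, an intron peak with a log2(fold change) of 3.85 and a −log10(P value) of 2.04. Significant peaks were in 3 of 5 spermatogonial markers in replicate 1 and 4 in replicate 2, and in 1 and 3 of 5 spermatocyte markers. They were in 2 and 2 of 5 Sertoli cell markers and in 2 and 2 of 5 Leydig cell markers. Those with a peak in both replicates were 3 spermatogonial, 1 spermatocyte, 1 Sertoli cell and 0 Leydig cell markers, beside 35.2% of all genes. Of the 6 spermatid markers, 2 had significant peaks in each replicate: Odf1 had 11 and 8, and Acrv1 had 5 and 3. Prm1, Prm2, Tnp1 and Tnp2 had 0 in both.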
